A study of Homo sapiens with 15 samples.

Results

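FOS, FOSL1, JUN, NR4A1 and NR4A3 were taken by their symbols from the raw count table of the series and make up 5 of its 730 endogenous genes. They were the 5 AP-1 and NR4A family members with a probe on the panel, which had none for FOSB, FOSL2, JUNB, JUND or NR4A2. Their transcripts were counted with the NanoString nCounter PanCancer Pathways panel, which counts barcoded probes hybridized to RNA without amplification. HCT116 cells, an epithelial line from a human colorectal carcinoma, were left untreated (control) or received for 24 h 40 µM thymoquinone (TQ), 15 µM 5-fluorouracil (5-FU), Combi as 35 µM TQ plus 35 µM 5-FU, or 35 µM of SARB, a hybrid made from TQ and 5-FU by esterification. Each of the 5 groups had 3 samples, described as biological replicates, and the samples analysed here hold 1 time point and 1 cell line. Doses match only between Combi and SARB. The 5 genes were selected on these same counts, since results of the 15 samples were known when they were listed, so their levels, fold changes and calls are a description, and no p-value of theirs is printed. In bulk lysates of this kind, a higher level in each cell cannot be told apart from more cells at a given level.

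AP-1 is a dimeric transcription factor built from a JUN protein and a FOS protein, or from JUN proteins alone, joined through a leucine zipper. FOS and JUN are immediate-early genes, switched on by growth factors and stress without new protein synthesis, and FOSL1 (Fra-1) is a FOS relative that is typically induced later and is known for its high level in invasive colorectal cancer cells. NR4A1 (Nur77) and NR4A3 (NOR-1) are orphan nuclear receptors whose transcripts are also induced as immediate-early genes. ERK phosphorylates and stabilizes FOS and FOSL1 proteins, and JNK phosphorylates JUN.

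In the GRCh38.p14 annotation of RefSeq, FOS lies on chromosome 14 (75278828 to 75282230), FOSL1 on chromosome 11 (65892049 to 65900545), JUN on chromosome 1 (58780791 to 58784047), NR4A1 on chromosome 12 (52022832 to 52059503) and NR4A3 on chromosome 9 (99821885 to 99866891). The probes were designed to their transcripts, so that the counts come from exonic sequence. The 250 bases before the annotated start were read for FOS, JUN, NR4A1 and NR4A3, and FOSL1 had no entry. They are shown for FOS, JUN and NR4A3, the genes with a motif in this window, since these promoters are the classical places where AP-1 and CREB act. Capitals mark the motifs and each line runs 5′ to 3′ on the gene's strand, which is plus for FOS at chr14:75278578-75278827, minus for JUN at chr1:58784048-58784297 and plus for NR4A3 at chr9:99821635-99821884.
FOS: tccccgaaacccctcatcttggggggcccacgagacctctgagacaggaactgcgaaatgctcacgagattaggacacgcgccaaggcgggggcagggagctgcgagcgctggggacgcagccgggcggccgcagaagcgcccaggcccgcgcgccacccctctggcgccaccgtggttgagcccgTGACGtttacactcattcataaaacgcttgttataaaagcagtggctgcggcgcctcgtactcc
JUN: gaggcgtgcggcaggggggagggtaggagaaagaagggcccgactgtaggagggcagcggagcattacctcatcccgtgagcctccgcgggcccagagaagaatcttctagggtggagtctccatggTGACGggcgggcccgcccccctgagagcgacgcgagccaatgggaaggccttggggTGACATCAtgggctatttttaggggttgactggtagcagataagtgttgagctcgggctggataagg
NR4A3: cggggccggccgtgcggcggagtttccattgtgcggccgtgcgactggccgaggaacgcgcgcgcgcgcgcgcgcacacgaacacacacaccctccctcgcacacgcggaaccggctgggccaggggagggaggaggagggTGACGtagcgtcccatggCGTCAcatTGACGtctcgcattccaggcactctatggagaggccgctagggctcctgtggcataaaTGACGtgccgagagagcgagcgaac
Motifs were searched on both strands as TGACG (the core of a cAMP response element), which 21.2% of 35116 promoter windows of the same length held, and as TGACNTCA, held by 6.87%, which takes in the full cAMP response element and overlaps the first motif where N is G. The AP-1 site, searched as TGANTCA, was held by 6.57% and the CArG box of serum response factor by 1.16%. FOS held 1 TGACG, starting 64 bases before the start. JUN held TGACATCA, a match of TGACNTCA, at 67 bases and 1 TGACG at 123 bases. NR4A3 held TGACG 4 times, at 109, 91 (on the other strand), 83 and 25 bases. Neither of the 2 windows of NR4A1 held any of the motifs, which says only that these letters are not in those windows.

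The total count of the endogenous genes lay between 135017 and 607782 per sample. Of the fixed marker genes, 6 of 7 epithelial genes, 1 of 7 blood cell genes (CD40) and 0 of 5 mesenchymal genes were above the negative probes in every control sample, where above means over the mean plus 2 SD of that sample's 8 negative probes. FOS, FOSL1, JUN and NR4A1 were above them in all 15 samples, whereas NR4A3 was not above them in any control sample. Levels are given below as scaled counts, raw counts divided by 1 factor per sample that makes the geometric mean of the 40 housekeeping genes equal. Calls come from edgeR's quasi-likelihood fit of all 730 genes and need both an adjusted p no greater than 0.05 and a difference of 1.5-fold or more. The typical gene lay below control on this scale, with a median log2 fold change of -0.47 under TQ, -0.41 under SARB, -0.27 under 5-FU and -0.10 under Combi. TMM normalization, which sets the scale by the majority of genes, brought these medians to between -0.07 and -0.02. The samples ran on 3 cartridges. The first carried control replicate 1 with every TQ, 5-FU and SARB sample. Combi replicate 1 was on the second with the other controls, and the third carried the remaining Combi samples.

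FOS separated the treatments into 2 sets. It was several times higher in TQ and Combi, and at or below the control level in 5-FU and SARB. FOS encodes the partner that gives AP-1 its strongest DNA binding and turns over quickly. The control samples counted 133, 141 and 104 scaled counts, the TQ samples 749, 821 and 894, and the Combi samples 638, 463 and 752. The 5-FU samples counted 80.6, 102 and 109.8, and the SARB samples 77.1, 105 and 71.4. Every TQ and Combi sample lay far above every control sample, TQ and Combi overlapped with each other, and 5-FU and SARB both overlapped with control. In order of the means, TQ stood at 821 ± 72.2, Combi at 618 ± 146, control at 126 ± 19.2, 5-FU at 97.6 ± 15.2 and SARB at 84.6 ± 18.1 (SD, n = 3). The log2 fold change was 2.70 (standard error 0.19) in TQ, a 6.51-fold difference, and 2.29 (0.19) in Combi, a 4.89-fold difference. In 5-FU it was -0.37 (0.21) and not called. In SARB it was -0.61 (0.21), called lower at 1.53-fold, but this call was lost after TMM normalization (-0.26), with cartridge as a block (-0.70), and without control replicate 1 (-0.58), control replicate 2 (-0.52), SARB replicate 1 (-0.57) or SARB replicate 3 (-0.49). The calls in TQ and Combi were kept in each of these settings.

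FOSL1, which encodes the FOS relative Fra-1, was higher in all 4 treatments, with TQ between control and the rest. The control samples counted 424, 438 and 513 scaled counts, and the TQ samples 671, 681 and 789.6. The 5-FU samples counted 899, 1034 and 1155, the Combi samples 1102, 1102 and 1161, and the SARB samples 907, 1185 and 831. Every TQ sample lay between the controls and the samples of the other 3 treatments, which overlapped among themselves. The order of the means was Combi (1122 ± 34.1), 5-FU (1029 ± 128), SARB (974 ± 187), TQ (714 ± 65.8) and control (458 ± 47.7). The log2 fold change against control was 1.29 (standard error 0.14) in Combi, 1.17 (0.14) in 5-FU, 1.08 (0.14) in SARB and 0.64 (0.14) in TQ. All 4 were called. The call in TQ at 1.56-fold was lost without TQ replicate 3 (0.56) and with limma on the deposited normalized values (0.57).

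JUN belongs to the family that FOS proteins need as a partner to bind DNA. It was higher in the 3 treatments that hold 5-FU or its hybrid and close to control in TQ. The control samples counted 43.2, 62.0 and 52.1 scaled counts and the TQ samples 66.1, 59.2 and 59.7. The 5-FU samples counted 100.1, 118 and 145, the Combi samples 157, 192 and 181, and the SARB samples 102, 171 and 122. TQ overlapped with control, and every 5-FU, Combi and SARB sample lay above all TQ and control samples. The means ran from Combi (177 ± 18.2) over SARB (132 ± 35.5), 5-FU (121 ± 22.3) and TQ (61.7 ± 3.85) to control (52.4 ± 9.38), and samples of Combi and SARB, and of SARB and 5-FU, overlapped. The log2 fold change was 1.75 (standard error 0.21) in Combi, 1.30 (0.21) in SARB and 1.19 (0.22) in 5-FU, all called, with folds of 3.37, 2.47 and 2.29. In TQ it was 0.21 (0.24) with a 95% interval of -0.28 to 0.70, and after TMM normalization 0.69 and called.

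NR4A1 was highest in Combi and differed little among the other treatments. Its protein binds DNA as a monomer or dimer and can also move to mitochondria during apoptosis. The control samples counted 79.6, 87.7 and 111 scaled counts and the Combi samples 159, 189 and 178. The TQ samples counted 129.8, 134 and 97.2, the 5-FU samples 107, 104 and 132, and the SARB samples 116, 140.2 and 108. Every Combi sample lay above all others, whereas TQ, 5-FU and SARB overlapped with one another, and TQ, 5-FU and SARB also overlapped with control. In order of the means, Combi stood at 175 ± 15.0, SARB at 121 ± 16.7, TQ at 120.3 ± 20.1, 5-FU at 114 ± 15.4 and control at 92.7 ± 16.3. The log2 fold change in Combi was 0.92 (standard error 0.17), called at 1.90-fold, and with cartridge as a block it was 0.68 and not called. It was 0.39 (0.18) in TQ, 0.30 (0.19) in 5-FU and 0.37 (0.18) in SARB, none of them called, while after TMM normalization TQ (0.88) and SARB (0.73) were called higher.

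NR4A3 stayed at the edge of detection. Its protein is closely related to that of NR4A1. The control samples had raw counts of 8, 9 and 16, the TQ samples 6, 25 and 8, the 5-FU samples 21, 20 and 21, the Combi samples 25, 52 and 30, and the SARB samples 24, 16 and 52. It was above the negative probes in 0 of 3 control samples, 1 of 3 in TQ, 3 of 3 in 5-FU and 2 of 3 each in Combi and SARB. The scaled means ran from 27.1 ± 1.83 for 5-FU over Combi (24.6 ± 5.76), SARB (23.4 ± 2.03) and control (18.1 ± 7.60) to TQ (14.6 ± 0.89), and neighbours in the order of the means overlapped. By edgeR no comparison called it, with log2 fold changes against control from -0.29 in TQ to 0.58 in 5-FU and standard errors of 0.37 to 0.41. The 95% interval in 5-FU ran from -0.21 to 1.38. With limma on the deposited background-subtracted values it was called higher in 5-FU (2.25), Combi (1.91) and SARB (1.94). Those values were set to at least 1, and no control sample was above the negative probes. The limma differences thus rest on control values near background. With raw counts under 20 set to 20 the same differences lay below 0 (-0.27, -0.42 and -0.38). That floor was set before scaling and raises shallow libraries most. All 3 control counts lay under it, so this turn of sign is built in and says nothing on the direction of NR4A3.

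**Figure D1:**
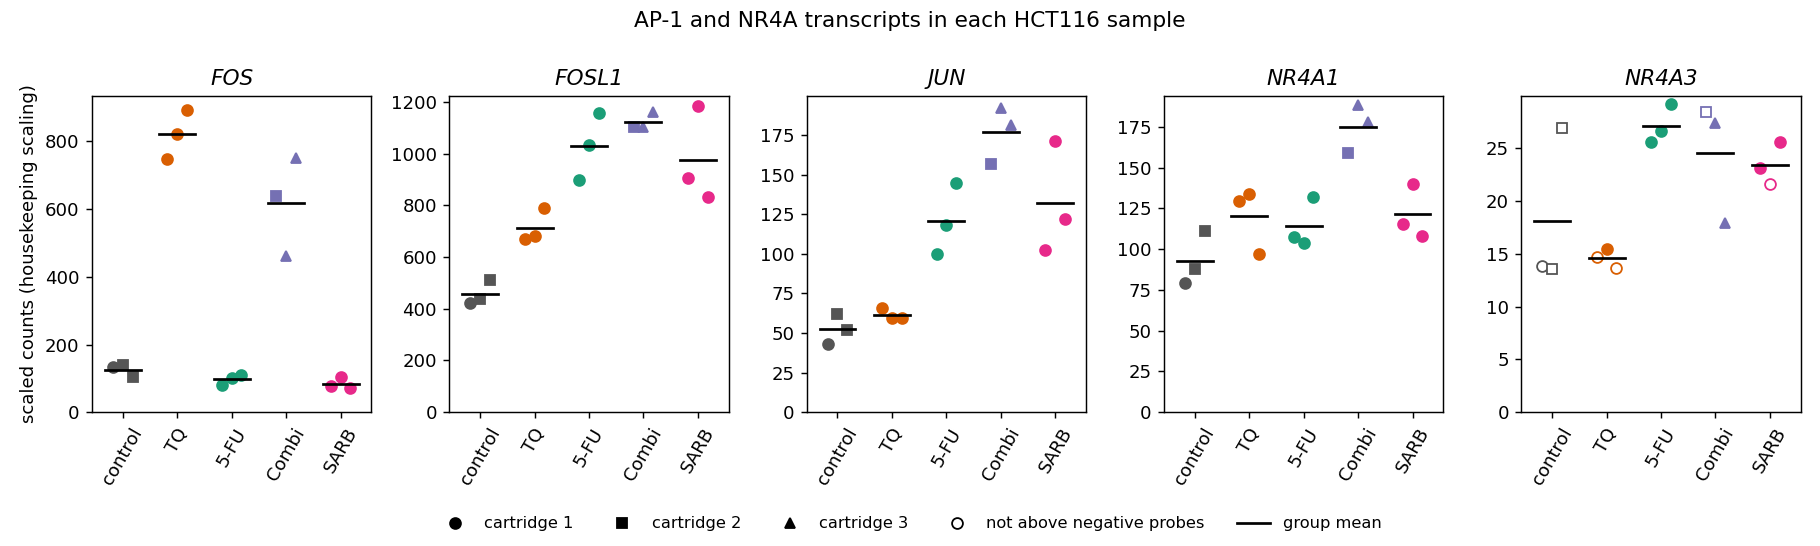
Scaled counts (y axis, linear from 0) of the 5 genes in each of the 15 samples, by group, with 1 point per sample, its shape giving the cartridge, and a line at the mean of 3 samples. Open points are not above the negative probes, as in 7 of the 15 samples for NR4A3, and FOS shows TQ and Combi between 463 and 894 against 71.4 to 141 in the other groups.

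Against control, 2 of the 5 genes were called higher in TQ (FOS and FOSL1), where 3.42% of all genes were called higher and 21.6% lower (10.8% and 6.03% after TMM normalization). In 5-FU 2 of 5 were called higher (FOSL1 and JUN), with 10.1% of all genes higher and 10.1% lower (14.2% and 5.62% after TMM normalization). In Combi 4 of 5 were called higher, with 13.6% of all genes higher and 6.58% lower (16.3% and 5.75% after TMM normalization), NR4A3 being the exception. In SARB 2 of 5 were called higher (FOSL1 and JUN), with 8.63% of all genes (16.4% after TMM normalization), and 1 of 5 lower (FOS), with 20% of all genes (9.32% after TMM normalization). These counts of the 5 genes are from housekeeping scaling. After TMM normalization 4, 2, 4 and 3 of them were called higher in TQ, 5-FU, Combi and SARB, and 0 were called lower in each. The comparisons share the 3 control samples. With cartridge as a block, TQ, 5-FU and SARB rest on control replicate 1 and Combi on its replicate 1, and 2, 2, 3 and 2 of the genes were called higher in TQ, 5-FU, Combi and SARB, against 1.78%, 8.08%, 8.36% and 6.85% of all genes. None of the 5 was then called lower in SARB, where 7.67% of all genes were, FOS standing at -0.70. Within the first cartridge alone, the log2 ratio of the treated mean to control replicate 1 was 2.62 for FOS in TQ, and 1.28 and 1.48 for FOSL1 and JUN in 5-FU. For SARB these within-cartridge ratios were 1.20 for FOSL1, 1.61 for JUN and -0.66 for FOS. Within the second cartridge, Combi replicate 1 against control replicates 2 and 3 gave 2.38 for FOS, 1.21 for FOSL1, 1.46 for JUN and 0.68 for NR4A1.

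**Figure D2:**
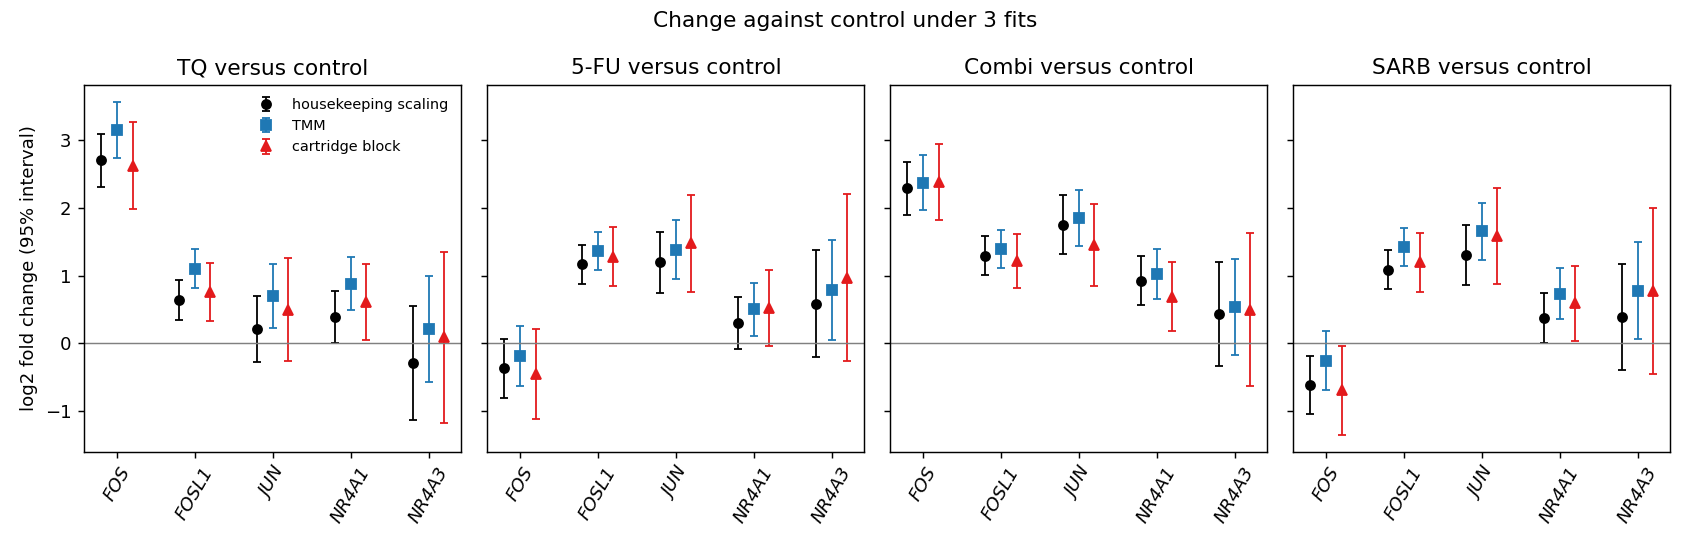
Log2 fold change against control (y axis) of the 5 genes in each treatment, with 95% intervals, from the fit with housekeeping scaling (black circles), after TMM normalization (blue squares) and with cartridge as a block (red triangles). FOS lies at 2.29 or above in TQ and Combi under all 3 fits and below 0 in 5-FU and SARB.

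Among the treatments, TQ, 5-FU and SARB ran on the same cartridge, so that their differences do not involve the cartridge. FOS was 8.44-fold higher in TQ than in 5-FU (log2 fold change 3.08, standard error 0.19), and JUN was lower in TQ (-0.98, 0.21). These were the 1 gene of 5 called higher and the 1 of 5 called lower, where 3.15% and 14.4% of all genes were called (8.22% and 9.59% after TMM normalization). FOSL1 at -0.53 was not called, but was called without TQ replicate 3 (-0.60) or 5-FU replicate 1 (-0.62). FOS was 9.96-fold lower in SARB than in TQ (-3.32, 0.19) and JUN 2.13-fold higher (1.09, 0.20), 1 of 5 genes in each direction, against 5.62% of all genes lower and 13.8% higher (8.08% and 11.0% after TMM normalization). SARB and 5-FU gave 0 called genes of the 5 in either direction by edgeR or DESeq2, and 0 at an unadjusted p under 0.05 in both tools. Over all genes, 1.23% were called lower and 0% higher (1.37% and 0% by DESeq2, 0% in both directions after TMM normalization), with 11 genes higher at an unadjusted p under 0.05 in edgeR and 10 in DESeq2. The 95% intervals of SARB minus 5-FU were -0.67 to 0.19 for FOS, -0.36 to 0.19 for FOSL1, -0.28 to 0.50 for JUN, -0.28 to 0.43 for NR4A1 and -0.94 to 0.54 for NR4A3, so a moderate difference in either direction remains within them. The doses of these 3 treatments differed.

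Combi and SARB, the free mixture and the hybrid at the matched dose of 35 µM, differed most in FOS. Every Combi sample was at least at 463 scaled counts of FOS and every SARB sample at most at 105, a log2 difference of -2.90 (standard error 0.19), 7.47-fold lower in SARB. FOS was the 1 gene of 5 called lower, where 11.2% of all genes were called lower and 0.959% higher (7.40% and 5.34% after TMM normalization). No cartridge held both treatments. With cartridge as a block, which rests on the controls and Combi replicate 1, FOS stood at -3.07 and was the 1 gene of all 730 called lower (0.137%). JUN was at -0.45 (95% interval -0.82 to -0.08) and NR4A1 at -0.55 (-0.88 to -0.22), neither of them called, and with the block JUN turned to 0.13. Without SARB replicate 2, JUN (-0.65) and NR4A1 (-0.66) were called lower, and NR4A1 was also called without Combi replicate 1 (-0.61). FOSL1 at -0.21 (-0.48 to 0.07) and NR4A3 at -0.05 (-0.76 to 0.66) were not called, and both turned above 0 after TMM normalization (0.03 and 0.24).

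Combi was also set against each single drug, at doses that differed. Against TQ, 2 of 5 genes were called higher, JUN with 1.54 (standard error 0.20) and FOSL1 with 0.65 (0.13), where 28.4% of all genes were called higher and 5.75% lower (15.8% and 13.0% after TMM normalization). After TMM normalization FOSL1 stood at 0.29 and was not called, and with cartridge as a block neither JUN (0.96) nor FOSL1 (0.46) was, against 4.79% of all genes. FOS was at -0.41 (0.16) and not called, but was called lower after TMM normalization (-0.78) and without Combi replicate 3 (-0.59). NR4A1 was at 0.54 and was called without TQ replicate 2 (0.65) or Combi replicate 1 (0.59). Against 5-FU, FOS with 2.66 (0.19) and NR4A1 with 0.62 (0.17) were the 2 of 5 called higher, where 7.67% of all genes were higher and 4.11% lower (5.62% and 6.30% after TMM normalization). The call of NR4A1 was lost after TMM normalization (0.53), with the block (0.16), with limma on the deposited values (0.64), and without 5-FU replicate 1 (0.58), 5-FU replicate 2 (0.56) or Combi replicate 2 (0.56). JUN at 0.56 (0.18) was called without 5-FU replicate 3 (0.70) or Combi replicate 1 (0.63), and FOS kept its call in each of these settings, being with the block (2.83) the 1 gene of all 730 that was called higher (0.137%).

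**Figure D3:**
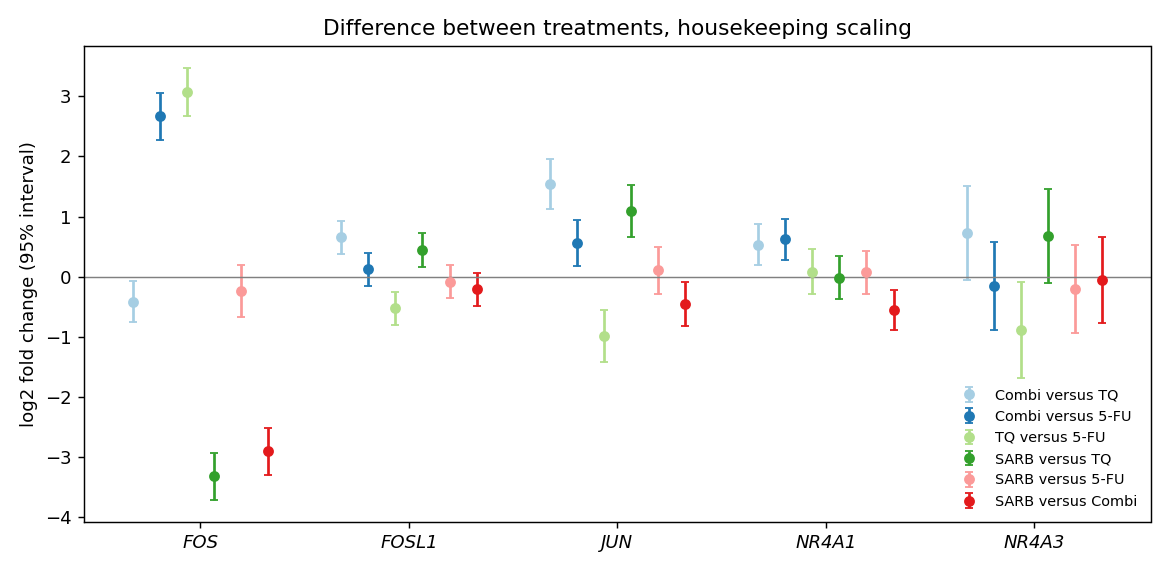
Log2 fold change (y axis, 95% intervals) of the 5 genes in the 6 comparisons between treatments, with housekeeping scaling. FOS spreads from -3.32 in SARB versus TQ to 3.08 in TQ versus 5-FU, and SARB versus 5-FU includes 0 for all 5 genes.

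Ratios of raw counts among FOS, FOSL1, JUN and NR4A1 do not depend on the scaling, because within a sample any factor cancels. Background does not cancel and weighs on low counts. JUN in control had raw counts of 25, 41 and 31, where the negative probes had means of 6.75, 12 and 12.25. The ratio of FOS to FOSL1 counts lay between 0.203 and 0.321 for control, between 1.12 and 1.21 for TQ and between 0.420 and 0.648 for Combi. It lay between 0.0897 and 0.0991 for 5-FU and between 0.0850 and 0.0887 for SARB. No 2 groups overlapped in this ratio, but 5-FU and SARB nearly touched, with 0.0897 as the lowest 5-FU and 0.0887 as the highest SARB value. With 3 samples a group, a gap of this size is not read as a difference between 5-FU and SARB. Every TQ and Combi sample had a higher ratio than the controls and every 5-FU and SARB sample a lower one. FOS to JUN ran from 2.00 to 3.08 in control, 11.3 to 15.0 in TQ and 2.41 to 4.15 in Combi. In 5-FU it was 0.760 to 0.865 and in SARB 0.585 to 0.755, all below control, while Combi overlapped with control. NR4A1 to JUN was 1.41 to 2.13 in control and 1.63 to 2.26 in TQ, against 0.980 to 1.01 in Combi, 0.819 to 1.13 in SARB and 0.876 to 1.07 in 5-FU. Probes differ in efficiency, so that these ratios compare samples and not the abundance of the 2 transcripts.

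Over the 15 samples, log2 scaled counts of FOSL1 and JUN ran together (Pearson r = 0.909), and NR4A1 went with JUN (0.749) and FOSL1 (0.716). FOS did not follow them, with r of 0.096 with FOSL1, -0.018 with JUN and 0.476 with NR4A1. These correlations describe samples that fall into 5 groups and share 1 scaling. Of the 513 genes with a mean raw count of at least 20, those most like FOS were PLA2G4C (r = 0.824), a phospholipase, DDIT3 (0.781), the stress transcription factor CHOP, and GADD45B (0.692), a stress-induced MAPK regulator. PLA2G4C counted only 13.6 ± 4.92 in control, 26.2 ± 8.76 in TQ and 34.8 ± 2.79 in Combi. DDIT3 and GADD45B were highest in TQ, with 1556 ± 203 and 673 ± 94.8 scaled counts against 894 ± 239 and 162 ± 41.4 in control, but DDIT3 was at 861 ± 164 and GADD45B at 234 ± 24.8 in Combi, where FOS was also high. FOSL1 was most like SFN (0.933), the p53-induced 14-3-3 sigma, LAMB3 (0.930), a laminin-332 chain, and JUN (0.909). LAMB3 went from 87.4 ± 16.0 scaled counts in control to 205 ± 33.6 in TQ and 604 ± 49.9 in Combi, with TQ in between as for FOSL1. JUN was most like BAX (0.943), which opens mitochondria in apoptosis, MDM2 (0.932), the p53 ubiquitin ligase, and FLNC (0.929), filamin C. MDM2 counted 9139 ± 637 in Combi, 8235 ± 583 in SARB, 7742 ± 204 in 5-FU, 2165 ± 54.0 in TQ and 1864 ± 192 in control, the same order of means as JUN. NR4A1 was most like IL8 (0.870), a chemokine, NOTCH2 (0.821), a Notch receptor, and RELA (0.819), the p65 subunit of NF-kB, which stood at 157 ± 6.00 in control and 420 ± 131 in Combi. NR4A3, at the edge of detection, was most like PLAU (0.874), IL12A (0.850) and SOCS1 (0.849). With TMM scaled counts 2 of the 3 genes remained for FOS, 1 for FOSL1, 3 for JUN, 2 for NR4A1 and 3 for NR4A3.

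Around the 5 genes, 5 lists covered the kinases upstream, ERK feedback genes, AP-1 target genes, other early response genes and the PKA and CREB arm. They were written from general knowledge but with earlier results of these data known, so their counts are a description only. Each count below reads beside the shares of all genes given above, and each median beside the medians of all genes. Of 17 AP-1 target genes on the panel, Combi had 7 called higher and 0 lower, SARB 5 and 1, 5-FU 4 and 1, and TQ 3 and 1, where 13.6%, 8.63%, 10.1% and 3.42% of all genes were called higher. The 0 in Combi was also 0 by DESeq2 and at an unadjusted p under 0.05 in both tools. The list's median log2 fold change was 0.42 under Combi, 0.11 under SARB, 0.07 under 5-FU and -0.45 under TQ, beside the medians of all genes given above. After TMM normalization the medians were 0.50 under Combi, 0.46 under SARB and 0.29 under 5-FU, with 8, 7 and 6 genes called higher and 0 lower in each, and TQ stood at -0.0015 with 3 higher and 0 lower. With cartridge as a block 5, 4, 3 and 2 were called higher in Combi, SARB, 5-FU and TQ. Of all genes 8.36%, 6.85%, 8.08% and 1.78% were. The list's medians with the block were 0.46, 0.44, 0.38 and -0.12, so that Combi and SARB nearly matched. THBS1, thrombospondin 1, rose in all 4 treatments, from 98.7 ± 13.9 scaled counts to 418 ± 74.4 in TQ, 320.1 ± 41.5 in SARB, 308 ± 41.9 in Combi and 244 ± 13.8 in 5-FU. PLAU, the urokinase-type plasminogen activator, rose in 5-FU (log2 fold change 1.78), Combi (1.58) and SARB (1.61) and stood at -0.36 in TQ, uncalled. IL8 rose in Combi (2.66), TQ (1.42) and SARB (1.39), from 24.4 ± 15.8 scaled counts in control to 155 ± 15.3 in Combi, and was at 0.78 in 5-FU, where it was called after TMM normalization (1.00), with cartridge as a block (2.27), by limma on the deposited values and without control replicate 3. With the block the IL8 values were 2.91 in TQ, 2.87 in SARB and 2.17 in Combi, so that Combi was no longer highest. IL8 lay near background in control, where size factors of 0.578, 0.661 and 0.595 put raw counts below the scaled ones. The mean plus 2 SD of the negative probes was 12.5, 26.4 and 24.9 raw counts there. The changes of IL8 thus rest on a low control value. The calls of THBS1 and PLAU held in each setting run, and these genes were named for the size of their called changes, so no p-value is given for them. The other AP-1 targets called, named after their values were seen, were CCND1 (TQ, 5-FU and SARB), TGFB1 (Combi and SARB), LIF (5-FU), and SPP1, PLAT and EGFR (Combi) on the higher side, and PLAT (TQ) and VEGFA (5-FU and SARB) on the lower side.

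Of 23 genes in the ERK, JNK and p38 kinase list, which also holds JNK scaffolds, TQ had 2 called higher and 1 lower, 5-FU 3 and 2, Combi 1 and 0, and SARB 2 and 5. In Combi 7 were lower at an unadjusted p under 0.05 in edgeR, and DESeq2 also called 0. The medians were -0.11, 0.01, -0.02 and -0.17 in TQ, 5-FU, Combi and SARB. After TMM normalization TQ had 4 higher and 1 lower and SARB 6 and 3, and the medians in TQ (0.35), Combi (0.10) and SARB (0.17) lay above 0. With cartridge as a block SARB had 1 and 1. MAPK3, which encodes ERK1, fell in TQ (-1.39), 5-FU (-0.71) and SARB (-1.12) and stood at -0.02 in Combi, and its 3 calls were lost with cartridge as a block (-0.74, -0.05 and -0.47). The call in 5-FU was also lost after TMM normalization (-0.50) and without control replicate 2 or 3. MAPK8IP2, a JNK scaffold, rose in 5-FU (1.10), SARB (0.97) and TQ (0.72) and lost these calls with the block (0.76, 0.63 and 0.39), that in TQ also without control replicate 2 or 3 or any TQ replicate. Other genes called, named after their values were seen, included MAP3K14 in TQ (1.08), MAP3K12 in 5-FU (1.20) and Combi (0.95), and HRAS in 5-FU (0.97) and SARB (0.60) on the higher side, and MAP2K6 (-1.75) and MAPK9 (-0.78) in SARB on the lower side. Of 12 ERK feedback and ERK-responsive genes, 1 was called higher and 3 lower in TQ, 2 and 1 in 5-FU, 3 and 2 in Combi, and 2 and 2 in SARB, with medians of -0.31, -0.02, 0.30 and -0.17. After TMM normalization the medians in TQ, 5-FU and SARB lay above 0 (0.18, 0.18 and 0.19), and 1 gene was lower in TQ and 1 in SARB. DUSP5, a nuclear phosphatase of ERK, rose from 1200.4 ± 152 scaled counts to 5143 ± 432 in SARB, 4774 ± 117 in 5-FU, 3701 ± 153 in Combi and 3025 ± 74.7 in TQ, called in each setting run. DUSP8, a phosphatase of JNK and p38, rose in 5-FU (1.14), Combi (0.91) and SARB (0.78) and was at 0.03 in TQ, uncalled. With the block its calls in Combi (0.48) and SARB (0.65) were lost, as they were without Combi replicate 2 and without control replicate 2 or 3. ETV1, an ETS factor, fell in all 4, by 1.81 on the log2 scale in TQ and by 0.87 in Combi, and these calls held in each setting run. DUSP6, an ERK phosphatase named after its values were seen, was lower in TQ (-0.62), Combi (-0.90) and SARB (-0.66), and DUSP4 was lower in TQ (-0.68) and higher in Combi (0.97).

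Of 14 other early response genes on the panel, TQ had 3 called higher and 3 lower, 5-FU 4 and 5, Combi 4 and 2, and SARB 3 and 7, with medians of -0.34, -0.48, 0.19 and -0.66. After TMM normalization TQ had 5 and 1, with a median of 0.13, and SARB 4 and 4, with a median of -0.31, and with the block TQ had 1 and 2 and SARB 2 and 4. CDKN1A, which encodes the cell cycle inhibitor p21 and is also a p53 target, rose in 5-FU (2.18), Combi (2.68) and SARB (2.39) and fell in TQ (-0.95), where the call was lost after TMM normalization (-0.47) and with the block (-0.56). TNFAIP3, an inhibitor of NF-kB, was called higher in all 4 treatments, from 29.9 ± 11.9 scaled counts in control to 78.9 ± 17.5 in Combi, and with the block only in Combi. Its call was also lost when any 1 of 9 samples was left out in 5-FU, 1 of 4 in TQ (control replicates 1 and 2, TQ replicates 1 and 3) and 1 in SARB (control replicate 2). In 5-FU these were control replicates 1 and 2, all of 5-FU, TQ replicate 3, Combi replicates 2 and 3 and SARB replicate 1. The others called, named after their values were seen, included GADD45B in TQ (2.05) and 5-FU (0.61), GADD45A in 5-FU (1.06), Combi (1.35) and SARB (0.76), and DDIT3, which was higher in TQ (0.80) and lower in 5-FU (-0.97) and SARB (-0.63). DDIT4, an inhibitor of mTORC1, fell in all 4, from 516 ± 130.1 scaled counts to 130.4 ± 10.6 in TQ, 224 ± 54.9 in SARB, 235 ± 51.1 in 5-FU and 325 ± 47.5 in Combi, the call in Combi being lost after TMM normalization, with the block, and without control replicate 1 or Combi replicate 1. MYC, singled out after its values were seen, was not called, with 0.51 in TQ, -0.58 in Combi, -0.50 in SARB and -0.27 in 5-FU. Of 14 genes of the PKA and CREB arm, 0 were called higher in any treatment by edgeR with housekeeping scaling, while TQ and SARB had 6 lower each, Combi 2 and 5-FU 1, with medians of -0.64 in TQ, -0.83 in SARB, -0.33 in Combi and -0.37 in 5-FU. DESeq2 also called 0 higher, and at an unadjusted p under 0.05 edgeR gave 1 gene higher each in 5-FU and Combi and 0 in TQ and SARB. Medians of all genes were -0.47 in TQ and -0.41 in SARB. After TMM normalization 2 each were lower in Combi and SARB and 1 each in TQ and 5-FU, and 1 each was higher in TQ and 5-FU. The list's medians were then -0.17 in TQ and -0.51 in SARB. With cartridge as a block 0 were lower in TQ and 2 in SARB, and with the replicate block 5 and 2. PRKACB, a catalytic subunit of PKA, fell in all 4, from 918 ± 57.7 scaled counts to 331 ± 81.7 in Combi and 309 ± 96.9 in SARB, the call in TQ (-0.82) being lost after TMM normalization (-0.35) and with the block (-0.76). CAMK2B and CREB3L3 were called lower in TQ and SARB, at 40.1 ± 11.0 and 15.8 ± 4.07 scaled counts in control. These 4 calls were lost with the block, those of CREB3L3 also after TMM normalization and in DESeq2. Leaving out any 1 of 10 samples ended the call of CREB3L3 in TQ and any 1 of 8 that in SARB. The call of CAMK2B in TQ was lost without TQ replicate 2, and that in SARB without control replicate 2 or 3 or SARB replicate 1 or 3.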

How the data were processed

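RNA (50 ng a sample) from HCT116 cells was counted by the authors on the nCounter PanCancer Pathways panel and read with nSolver Analysis Software. The deposited raw counts per probe (730 endogenous genes, 40 housekeeping genes, 8 negative and 6 positive probes) were the main data. The deposited normalized values are a signal that the authors scaled to the geometric mean of the housekeeping genes, and by their values it was also background subtracted and set to at least 1. They were used as an alternative only. The authors' own fold changes and p-values against control were deposited too and were not used. All columns used belong to the 15 samples.

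Raw counts of all 730 genes were fitted in 1 model of 5 groups with edgeR 4.0.16 (quasi-likelihood test, R 4.3.3), with size factors from the geometric mean of the housekeeping genes and no filter. P-values were adjusted by Benjamini-Hochberg over all 730 genes, and the procedure was tested on simulated data. Intervals are 95% intervals of the log2 fold change. Total endogenous counts of 135017 to 607782 set the precision for low genes, and a chi-square test of counts over genes found no pair of replicates that agreed within sampling noise.

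Likeness is Pearson's r of log2(scaled count + 1) over genes with a mean raw count of at least 20. The 5 genes and all lists were chosen with earlier results of these data known. Named list genes are the up to 3 per list with the largest mean absolute log2 fold change over the 4 treatments among those called in the same direction in at least 2 treatments, and for likeness the 3 genes with the highest r. Some list genes that were called are counted but not reported here by name. Alternatives were TMM normalization, DESeq2 1.42.0, a minimum mean count of 20, counts under 20 set to 20, limma 3.58.1 on the deposited normalized values, cartridge or replicate number as a block, and each sample left out. Promoters and positions came from RefSeq tables (GRCh38.p14), in which 4 of the 5 genes had a promoter entry.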

Additional observations from a re-analysis of the deposited data

How the results depend on the processing

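Over the 50 log2 fold changes of the 5 genes (5 genes in 10 comparisons), DESeq2, the minimum mean count of 20 and the replicate block changed no direction and no call. Over all 22 alternatives 1032 values kept direction and call, 33 changed sign, 18 lost and 17 gained a call. After TMM normalization, 4 in place of 2 of the 5 genes were called higher in TQ versus control, and 0 in place of 1 lower in SARB versus control, which was also 0 with cartridge as a block. With limma on the deposited values 1 was called higher in TQ, where FOSL1 (0.57) lost its call. NR4A3 was then called higher in 5-FU (2.25), Combi (1.91) and SARB (1.94), from control values near background. Leaving out a replicate gave 1 to 2 genes higher in TQ versus control, 0 to 1 lower in SARB versus control and 1 to 3 lower in SARB versus Combi.

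Signs turned as follows, none with a call in the fit reported. After TMM normalization the log2 fold change was 0.21 for NR4A3 in TQ versus control, 0.060 for FOSL1 in SARB versus 5-FU, and 0.032 for FOSL1 and 0.24 for NR4A3 in SARB versus Combi. With counts under 20 set to 20, NR4A3 gave -0.27 in 5-FU, -0.42 in Combi and -0.38 in SARB versus control, -0.33 in Combi versus TQ, -0.29 in SARB versus TQ, 0.044 in SARB versus Combi and 0.18 in TQ versus 5-FU. This floor raises shallow libraries most after scaling. With limma NR4A3 gave 1.24 in TQ versus control and 0.033 in SARB versus Combi. With cartridge as a block NR4A3 gave 0.087 in TQ versus control and 0.27 in SARB versus Combi, FOSL1 -0.065 and JUN -0.025 in Combi versus 5-FU, and JUN 0.13 in SARB versus Combi. Leaving out a replicate spread NR4A3 from -0.47 to 0.10 in TQ versus control, -0.24 to 0.053 in SARB versus Combi and -0.25 to 0.039 in Combi versus 5-FU. NR4A1 spread from -0.14 to 0.10 in SARB versus TQ, -0.028 to 0.21 in TQ versus 5-FU and -0.033 to 0.18 in SARB versus 5-FU, where JUN spread from -0.10 to 0.25 and FOSL1 from -0.24 to 0.022. Where no construction is named, the cause was not tested.

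Counts over all genes moved by over 1.5 times as follows. In TQ versus control 25 higher became 79 with TMM normalization and 13 with the cartridge block, and 158 lower became 44 with TMM, 69 with the floor of 20, 96 with limma, 26 with the block, 82 without control replicate 3 and 62 without TQ replicate 2. In 5-FU 74 lower became 41 with TMM and 39 with the block, and in Combi 99 higher became 61 with the block. In SARB 63 higher became 120 with TMM, and 146 lower became 68 with TMM, 56 with the block, 243 without SARB replicate 2, 92 when SARB replicate 3 was left out, and 91 without control replicate 3. In SARB versus Combi 82 lower became 54 with TMM, 1 with the block, 148 without SARB replicate 2, 49 without Combi replicate 3 and 40 when SARB replicate 3 was left out, and 7 higher became 39 with TMM, 0 with the block and 12 without Combi replicate 1. In Combi versus TQ 207 higher became 115 with TMM, 134 with the floor and 35 with the block, and 42 lower became 95 with TMM and 7 with the block. In Combi versus 5-FU 56 higher became 1 with the block, 32 without 5-FU replicate 1 and 37 without Combi replicate 3, and 30 lower became 46 with TMM and 0 with the block. In TQ versus 5-FU 23 higher became 60 with TMM. In SARB versus 5-FU 9 lower became 0 with TMM, 1 with limma and 0 to 15 when a 5-FU or SARB replicate was left out (0 without 5-FU replicate 1 or 2 or SARB replicate 3, 1 without SARB replicate 2, 15 without SARB replicate 1), and 0 higher became 1 without SARB replicate 1.

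The replicate numbers of the labels did not pair the samples. Deviations of same-numbered samples from their group means correlated from -0.67 to 0.39 over 30 pairs, with 9 over 0.1, and in 8 of the 30 the sample correlated best with its own number. With the replicate block 137 in place of 158 genes were lower in TQ versus control and 63 in place of 82 in SARB versus Combi, and FOS in TQ versus control stood at 2.70.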
